A study of Mus musculus with 93 samples.

Results

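Early macrophages of mouse embryos were compared between 2 embryonic ages, E10.25 and E10.5 (days of embryonic development), in libraries labelled Mac from brain, limbs, liver and yolk sac. All libraries with that cell type, those tissues and those ages were taken by their labels, which gave 20 of the 93 libraries of the series. At E10.25 there were 3 libraries from brain, 2 from limbs, 2 from liver and 4 from yolk sac (n = 11). At E10.5 there were 2 from brain, 2 from limbs, 2 from liver and 3 from yolk sac (n = 9). The cells had been sorted, and libraries of their polyA RNA were made by SMART-Seq2, which copies whole transcripts from very few cells. For strain, genotype, sex, sort markers and any pooling of embryos, the sources used here give nothing. The series is described as holding technical and biological replicates without saying which are which, so p-values measure the spread between these libraries, which may be technical.

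Macrophages of the early embryo descend largely from erythro-myeloid progenitors of the yolk sac. Their precursors, here labelled pMac, enter the circulation and the tissues, lose progenitor genes such as Kit and Cd34, and take on receptors for growth factors, dying cells and microbes. The receptor Csf1r binds the growth factors CSF1 and IL-34 and is needed by most macrophages. Resident macrophages later acquire features of their organ, such as iron recycling in the liver and a distinct set of genes in the microglia of the brain. The comparison asked whether cells already labelled as macrophages differed in gene expression between these closely spaced ages, with the tissue held constant.

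Levels are on a log2 scale, so a difference of 1 is a doubling. A common floor of 5.48 was set above each library's band of lowest values, and a gene at 5.48 was treated as not detected. Levels of different genes were not compared, because no correction for transcript length is stated. Between 20345 and 24574 transcripts lay above the floor in the E10.25 libraries, with a mean of 22430 ± 1333 (SD, n = 11). In the E10.5 libraries the number ranged from 18393 to 23420, with a mean of 21773 ± 1610 (SD, n = 9). The ages overlapped, and an exact permutation test within tissues gave p = 0.246 (two-sided, 12600 arrangements). Sequencing depth is unknown, since the values are not counts. Yolk sac E10.5 replicate 3 stood apart from the other 19 libraries. It had the fewest detected transcripts, at 18393, and lay at 217.9 on the first principal component, where the others lay between -47.4 and 39. Small offsets among the lowest values split the libraries of the series into a larger and a smaller set, which no label names. The offsets were shared mainly in the smaller set, with a median correlation of 0.632 between its libraries. The median was 0.054 within the larger set and -0.086 between the sets, and 1 library was closer to the other set. Of the E10.25 libraries 8 fell in the larger set and 3 in the smaller, and of the E10.5 libraries 3 and 6, so the sets are unevenly spread over the ages.

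No gene was called different between the ages. The difference was tested in 9673 genes with limma, with tissue as a covariate and Benjamini-Hochberg adjustment, and a gene was called at an adjusted p under 0.05 and a log2 difference of at least 1. The share called was 0% of all genes tested, and the smallest adjusted p was 0.915. At an unadjusted p under 0.05 there were 499 genes, or 5.16%, of which 321 (3.32%) had the higher level at E10.5 and 178 (1.84%) at E10.25. The p-values were spread almost evenly between 0 and 1, as the plot of all genes shows. No other program was used for this test. In no gene did every E10.5 library exceed every E10.25 library within each of the 4 tissues, and in none was the order the reverse. The ages can be arranged within tissues in 12600 ways, so few or no genes of 9673 would show either order by label order alone. Their absence therefore says nothing on the ages. In at least 3 of the 4 tissues, 55 genes (0.569%) had every E10.5 library above every E10.25 library, and 26 (0.269%) had every E10.5 library below. The shares that label order alone would give were not computed, so these counts are not read as a difference between the ages. Differences are given as E10.5 minus E10.25 throughout, with the standard error (SE) of the fit. Their median over all genes was 0.110, with 59.1% above 0. That tilt depended on scaling: the median was -0.069 after centring each library and -0.023 after quantile normalization. It also rested on the library that stood apart, without which it was 0.013 with 51.2% above 0.

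The absence of calls has to be read against the precision. The median SE of a difference was 0.51. In 1130 genes (11.7%) the 95% interval of the difference lay within -1 and 1, and in 8530 genes (88.2%) within -2 and 2. Genes with a mean level of 10 or more were measured best: their median SE was 0.403, and 27.8% of them had an interval within -1 and 1. In simulated data of the same 9673 genes and libraries, 2 of 50 genes with a true log2 change of 1 were called, 17 of 50 at 1.5, 24 of 50 at 2 and 43 of 50 at 3. The simulated noise was independent between genes, so it held no shift shared by a whole library and no sets of libraries. The rule for a call also needs an estimated difference of at least 1, which a true change of 1 often misses whatever the noise. Only these few planted genes carried a change, and their number affects the adjustment. Under these settings and this rule a change of 2-fold in single genes was mostly not called. A p that misses the threshold does not show that the ages did not differ. The tissue term of the same fit, an F test over the 4 tissues, passed an adjusted p of 0.05 in 31 genes (0.32%), and 13.2% had an unadjusted p under 0.05.

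**Figure D1:**
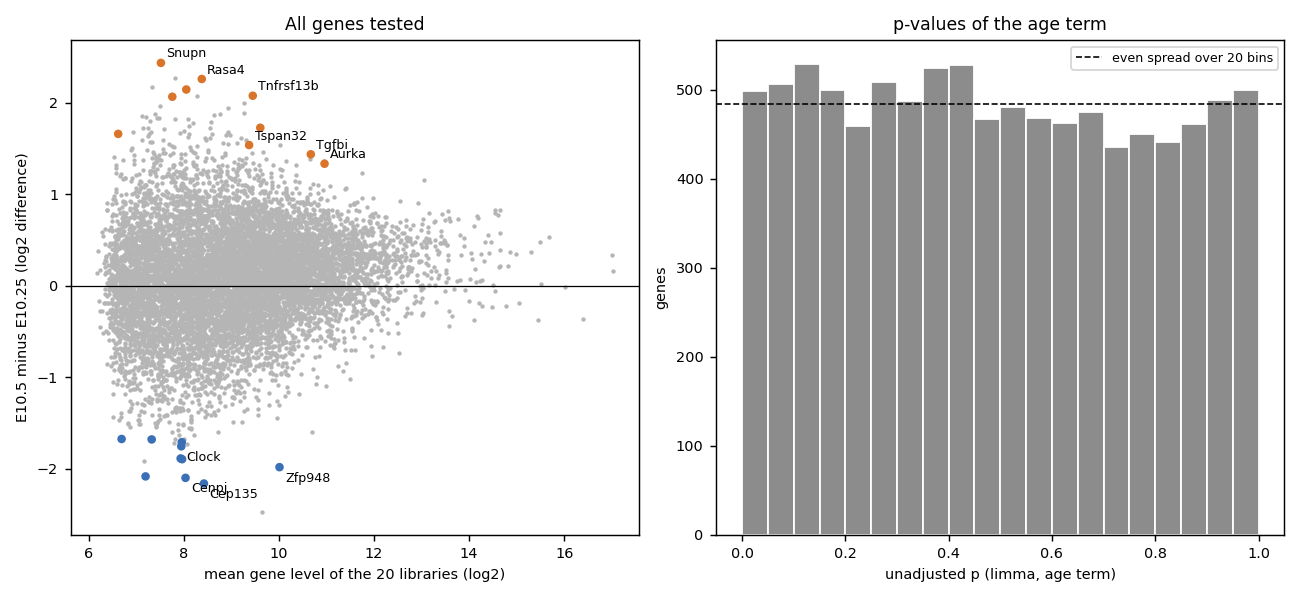
Left, difference between E10.5 and E10.25 (log2) against the mean level of the 20 libraries (log2) for each of the 9673 genes tested, with the 10 genes of smallest p in each direction in colour (orange above 0, blue below 0) and 10 of the 20 labelled. The grey point below Cep135 is a predicted gene, which the rule for naming left out. Right, number of genes by unadjusted p, where the dashed line marks an even spread. The 499 genes with p under 0.05 are 5.16% of those tested, and no gene passed after adjustment.

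Genes that mark macrophages, Csf1r, Mrc1, Adgre1, Cx3cr1, Trem2 and Apoe among them, were detected in all 20 libraries, at levels that overlapped between the ages. Csf1r lay at 13.62 to 14.99 in the E10.25 libraries (median 13.98) and at 13.07 to 14.99 in the E10.5 libraries (median 14.38). Its difference was 0.04 ± 0.34, with a 95% interval of -0.65 to 0.72 (adjusted p = 0.999), so a doubling or halving of Csf1r lies outside the interval. The mannose receptor Mrc1 lay at 12.65 to 15.16 (median 13.50) at E10.25 and at 11.20 to 14.68 (median 13.45) at E10.5, a difference of -0.44 ± 0.40 (adjusted p = 0.954). For neither gene did the ages separate in the 20 libraries. Adgre1, which encodes the surface antigen F4/80, had medians of 11.03 and 11.27 and a difference of 0.31 ± 0.42. The chemokine receptor Cx3cr1 had medians of 12.22 and 12.90 and a difference of 0.25 ± 0.38. Trem2, a receptor for lipids and dying cells, had a difference of 0.65 ± 0.40 with an interval of -0.17 to 1.47. The lipid carrier Apoe lay at 13.51 to 16.52 (median 15.01) and 13.59 to 17.10 (median 15.14), a difference of 0.22 ± 0.40. All of these had an adjusted p above 0.9, and without yolk sac E10.5 replicate 3 the differences of Csf1r, Cx3cr1 and Apoe were -0.06, -0.02 and -0.02 and that of Trem2 was 0.33. With the set of libraries as a covariate the difference of Mrc1 was -0.99.

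Among the transcription factors of the myeloid lineage, the same overlap was seen. Spi1, which encodes PU.1, lay at 10.78 to 12.74 (median 11.66) at E10.25 and at 10.20 to 14.04 (median 12.11) at E10.5, with a difference of 0.35 ± 0.33 and an interval of -0.31 to 1.01. Maf, a factor of mature macrophages, had medians of 12.40 and 12.37 and a difference of -0.25 ± 0.35. The highest Spi1 level, 14.04, belonged to yolk sac E10.5 replicate 3, without which the difference was 0.17. With the set of libraries as a covariate the difference of Maf was -0.66.

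Among progenitor genes, Kit was low and Cd34 was scattered at both ages. Kit, the stem cell factor receptor, was at the floor in most libraries, reached at most 8.25 at E10.25 and 9.02 at E10.5, and did not pass the filter on low levels, which required a level of 6.48 in at least 9 libraries. Cd34 lay at 7.84 to 11.83 (median 9.15) at E10.25 and at 5.48 to 11.65 (median 10.38) at E10.5. Its difference was 0.69 ± 0.59 (adjusted p = 0.954), and 1.29 after leaving out yolk sac E10.5 replicate 3, the only E10.5 library in which Cd34 was not detected. Of 16 genes in a list of progenitor genes, 15 were in the deposited data and 10 were tested, none was called, and 6 had a difference above 0 (median 0.23). Without yolk sac E10.5 replicate 3 the median was -0.01 with 4 of 10 above 0, and with the set of libraries as a covariate it was -0.10. Gata2, Mycn, Hoxa9 and Flt3 were among those below the filter. Myb, a factor of definitive progenitors, lay at 5.61 to 10.31 at E10.25 and at 5.48 to 9.82 at E10.5, a difference of -0.46 ± 0.65.

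**Figure D2:**
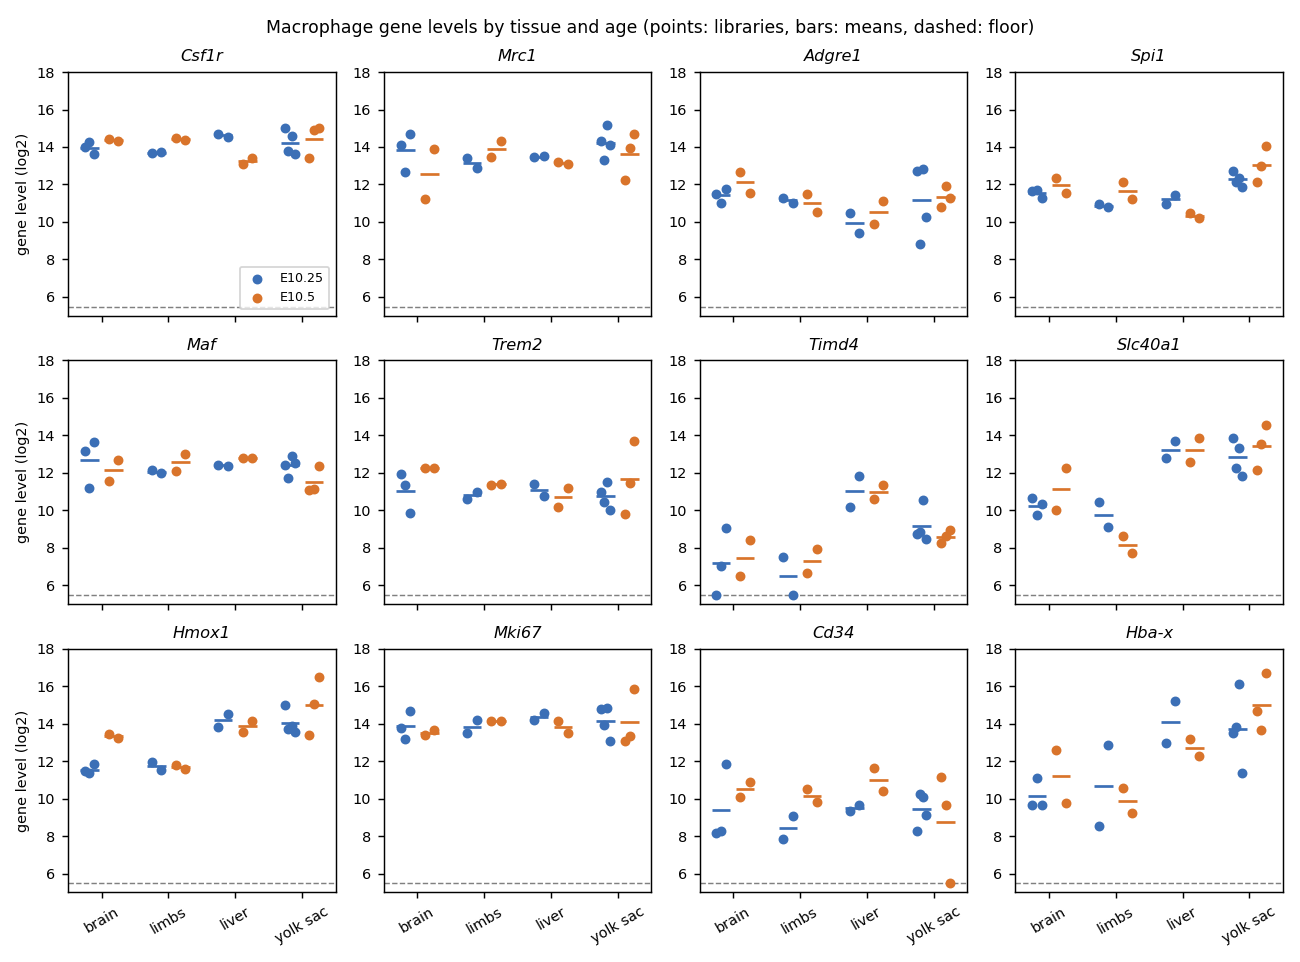
Gene levels (log2) of 12 genes in the 20 libraries by tissue, with E10.25 in blue and E10.5 in orange. Points are libraries, horizontal bars are group means, and the dashed line is the floor of 5.48. Csf1r stays between 13.07 and 14.99, whereas Slc40a1, Hmox1 and Timd4 lie higher in liver and yolk sac than in limbs.

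Several genes of iron handling and clearance differed between tissues at these ages. Slc40a1 (ENSMUSG00000025993.10, mm10 chromosome 1, 45908068 to 45926523, minus strand) encodes ferroportin, the iron exporter of cells that recycle red cells. Its level was 7.71 to 10.44 in limbs (n = 4), 9.74 to 12.25 in brain (n = 5), 12.56 to 13.88 in liver (n = 4) and 11.84 to 14.57 in yolk sac (n = 7). Every liver library lay above every limb and brain library, and liver and yolk sac overlapped (tissue term, limma, adjusted p = 0.000209). With the tissue held constant the difference between ages was 0.10 ± 0.41, with an interval of -0.73 to 0.93, and -0.11 without yolk sac E10.5 replicate 3.

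Hmox1 (ENSMUSG00000005413.8, chromosome 8, 75093621 to 75100589, plus strand), the heme-degrading enzyme heme oxygenase 1, was also higher in every liver and yolk sac library than in every limb library. It lay at 11.51 to 11.93 in limbs, 11.35 to 13.46 in brain, 13.55 to 14.54 in liver and 13.42 to 16.48 in yolk sac (tissue term, adjusted p = 0.0101). In brain the 3 E10.25 libraries lay between 11.35 and 11.83 and the 2 E10.5 libraries at 13.46 and 13.23. That was a difference of 1.80 ± 0.72 within brain, which was not called. Over all tissues the difference was 0.70 ± 0.36 (interval -0.04 to 1.44, adjusted p = 0.932). Yolk sac E10.5 replicate 3 had the highest level, 16.48, and the difference over the other 19 libraries was 0.46.

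Timd4 (ENSMUSG00000055546.6, chromosome 11, 46810800 to 46844332, plus strand) encodes TIM-4, a receptor for phosphatidylserine on dying cells. It reached 10.20 to 11.84 in liver and 8.23 to 10.57 in yolk sac, against 5.48 to 9.04 in brain and 5.48 to 7.94 in limbs (tissue term, adjusted p = 0.0385). Both liver ages were alike in range, and the difference between ages over all tissues was 0.02 ± 0.54. Id1 and Id3, inhibitors of DNA binding, also had their highest medians in liver (11.24 and 11.46), but their tissue terms had adjusted p-values of 0.217 and 0.167. Their differences between ages were 0.42 ± 0.46 and -0.44 ± 0.55. Sall1, a regulator of microglia, was above the floor in 8 of 20 libraries, of which 4 were from brain, 2 from limbs, 1 from liver and 1 from yolk sac. It did not pass the filter on low levels and was not tested. Its highest levels were 7.72 in brain and 8.19 in limbs. In liver it was at most 6.46 and in yolk sac at most 5.85.

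Other genes with a tissue term under 0.05 were chosen for naming after their values were seen. The scavenger receptor Msr1 lay at 10.10 to 11.68 in liver and 9.65 to 12.54 in yolk sac, above all limb libraries (6.71 to 8.01). Fcna, a lectin of the complement system, was at 10.92 to 12.15 in liver against 8.53 to 9.58 in limbs. Sparc and Pla2g7 had their highest medians in brain, at 10.08 and 9.53. In none of these 4 genes was a difference between ages called. Markers of other cells also had a tissue term under 0.05. The globin gene Hba-a2 had medians of 14.41 in yolk sac and 12.25 in liver, against 9.90 in limbs and 9.35 in brain. Its reads may be shared with the related gene Hba-a1. The neural gene Sox11 had medians of 8.86 in brain and 8.79 in limbs, against 7.39 in liver and 5.48 in yolk sac. The part of such RNA in the tissue differences was not tested.

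Globin genes, which mark red cells, varied widely between libraries. The embryonic globin Hba-x lay at 8.51 to 16.12 (median 12.86) at E10.25 and at 9.24 to 16.70 (median 12.61) at E10.5, a difference of 0.28 ± 0.57, which was -0.06 without yolk sac E10.5 replicate 3 and 0.69 with the set of libraries as a covariate. By tissue its medians were 13.81 in yolk sac and 13.05 in liver, against 9.89 in limbs and 9.78 in brain (tissue term, adjusted p = 0.0135). Hbb-y spanned 8.24 to 15.78 at E10.25 and 9.10 to 17.62 at E10.5, and its difference was 0.22 with all libraries and -0.22 without that library. With the set as a covariate it was 1.29, and it was negative without the yolk sac libraries. Its differences by tissue ran from -3.53 ± 1.34 in liver to 2.51 ± 1.03 in yolk sac, and the test of the difference between tissues did not pass (adjusted p = 0.862). In bulk libraries, fewer cells of a type and less RNA per cell cannot be told apart.

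None of the genes with the smallest p-values passed the adjustment, and each had an adjusted p of 0.915. They are given as values only. Snupn (ENSMUSG00000055334.4, chromosome 9, 56950878 to 56983206, plus strand) encodes snurportin, which carries small nuclear ribonucleoproteins into the nucleus. It lay at 5.48 to 8.44 (median 5.52) in the E10.25 libraries and at 7.51 to 11.49 (median 8.27) in the E10.5 libraries, with a difference of 2.44 ± 0.58. The ages did not overlap in brain, liver and yolk sac, but in limbs they did, where the difference was -0.22 ± 1.20. Without yolk sac the difference was 1.66.

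Tgfbi (ENSMUSG00000035493.10, chromosome 13, 56609523 to 56639562, plus strand) encodes a secreted matrix protein induced by TGF-beta. Its level was 9.13 to 11.33 (median 9.96) at E10.25 and 9.51 to 13.93 (median 11.56) at E10.5, a difference of 1.44 ± 0.42. In brain, limbs and liver every E10.5 library lay above every E10.25 library, and in yolk sac the lowest E10.5 library, at 9.51, lay within the E10.25 range. Tspan32, a tetraspanin of blood cells, behaved alike, with medians of 8.71 and 10.46 and a difference of 1.54 ± 0.42. Tnfrsf13b, the receptor TACI for BAFF and APRIL, had medians of 9.27 and 10.55 and a difference of 2.08 ± 0.56. Rasa4, a Ras GTPase-activating protein, differed by 2.26 ± 0.61 and Nob1, a factor of ribosome assembly, by 1.73 ± 0.51. Adck2 differed by 2.07 ± 0.60. Isoc2b differed by 1.66 ± 0.48, and its reads may be shared with the related gene Isoc2a.

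Aurka (ENSMUSG00000027496.15, chromosome 2, 172356190 to 172370535, minus strand), a kinase of the mitotic spindle, lay at 9.02 to 11.90 (median 10.15) at E10.25 and at 10.49 to 14.51 (median 11.56) at E10.5, a difference of 1.33 ± 0.39. The value of 14.51 came from yolk sac E10.5 replicate 3, without which the difference was 1.04.

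In the other direction, Cep135 (ENSMUSG00000036403.15, chromosome 5, 76588698 to 76646466, plus strand), a protein of the centriole, lay at 7.14 to 10.79 (median 9.47) at E10.25 and at 5.48 to 10.07 (median 7.29) at E10.5. Its difference was -2.16 ± 0.58, and all 3 yolk sac libraries of E10.5 were at the floor. Cenpj, another centriole protein, had medians of 9.12 and 6.92 and a difference of -2.10 ± 0.63. Clock, a factor of the circadian clock, differed by -1.75 ± 0.57, the ubiquitin ligase Trim37 by -1.90 ± 0.59 and the histone methyltransferase homologue Setdb2 by -2.08 ± 0.60. Zfp948 (-1.98 ± 0.55), Ctdp1 (-1.89 ± 0.59), Fam126a (-1.71 ± 0.53), Rhbdf1 (-1.68 ± 0.53) and Pdia5 (-1.68 ± 0.55) complete the 10. At least 1 E10.5 library was at the floor for 9 of these 10 genes, so the size of their differences depends on where the floor lies. Among the genes higher at E10.5, Snupn, Rasa4, Tnfrsf13b, Isoc2b, Adck2 and Nob1 also had at least 1 library at the floor. The same limit applies to their differences.

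Gene lists were read by their counts and medians, beside the 59.1% of all genes above 0 and the median of 0.110. Of the 43 lists none had a called member, and 31 of the 435 list genes tested had an unadjusted p under 0.05, where 5.16% of all genes tested did. Over the 23 lists with at least 10 members tested, medians ran from -0.51 to 0.49, and those of 20 lists lay nearer to 0 without yolk sac E10.5 replicate 3. The genes given as examples were chosen after their values were seen.

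The macrophage core list had 25 of 28 tested members above 0, with a median of 0.47 and a range of -0.44 to 1.16. Without yolk sac E10.5 replicate 3 the median was 0.27 with 22 of 28 above 0, and with the set of libraries as a covariate it was 0.22. Lyz2, which encodes lysozyme, lay at 10.67 to 14.35 (median 12.41) at E10.25 and at 12.65 to 15.96 (median 13.46) at E10.5, a difference of 1.16 ± 0.38 (adjusted p = 0.915). Irf5, an interferon regulatory factor of inflammatory macrophages, had medians of 10.13 and 10.97 and a difference of 1.01 ± 0.38. The complement genes C1qa, C1qb and C1qc differed by 0.50 ± 0.44, 0.56 ± 0.37 and 0.48 ± 0.37. Of the 28 members, 28 had a 95% interval within -2 and 2, and 4 within -1 and 1.

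Among phagocytic and complement receptors, 16 of 18 tested members were above 0, with a median of 0.49, which was 0.42 without yolk sac E10.5 replicate 3. Itgb5, an integrin subunit that binds bridges to dying cells, lay at 9.10 to 10.95 at E10.25 and at 9.92 to 13.40 at E10.5, a difference of 1.07 ± 0.39. The Fc receptor Fcgr4 differed by 1.37 ± 0.57, the receptor kinase Axl by 1.34 ± 0.63 and the lipoprotein receptor Scarb1 by 0.89 ± 0.38. Each had an adjusted p above 0.9. The other members, Itgax, Tyro3, Stab2, Marco, Cd163 and Vsig4, were below the filter, and Vsig4 was at the floor in all 20 libraries.

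Receptors for microbes and cytokines gave mixed signs. Of pattern recognition receptors, 11 of 15 tested members were above 0 (median 0.20, and 0.84 without yolk sac). Clec4n, which encodes Dectin-2, was detected in 4 of 11 libraries at E10.25 and in 8 of 9 at E10.5, with a difference of 1.84 ± 0.61. Ifih1, the RNA sensor MDA5, was detected in 11 of 11 and 6 of 9 libraries, with a difference of -1.36 ± 0.60. Of cytokine and chemokine receptors 19 of 23 were above 0 (median 0.25), led by Il10ra, a chain of the IL-10 receptor (1.38 ± 0.44), and Csf3r, the G-CSF receptor (1.06 ± 0.39). In this list 14 of 23 were above 0 without yolk sac E10.5 replicate 3 (median 0.17), and 14 of 23 after quantile normalization (median 0.05). Chemokines and cytokines had 6 of 10 above 0 (median 0.27), and the interferon response list 11 of 17 (median 0.20). Without yolk sac E10.5 replicate 3 these medians were 0.17 and 0.31, and with the set of libraries as a covariate -0.14 and -0.03. Of 8 MHC class II genes 4 were tested, and H2-Ab1 had medians of 6.74 and 7.14 and a difference of -0.13 ± 0.56.

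Lysosomal genes had 28 of 33 tested members above 0 and a median of 0.44, which was 0.22 without yolk sac E10.5 replicate 3. The cathepsins Ctsc, Ctsb and Ctsz, proteases of the lysosome, differed by 0.80 ± 0.35, 0.78 ± 0.38 and 0.70 ± 0.32. In the list for iron and heme, 12 of 15 were above 0 (median 0.37, and 0.17 without that library). The iron transporter Slc11a2 (1.62 ± 0.54) and the heme-responsive repressor Bach1 (-1.12 ± 0.52) lay at the ends of this list. Lipid handling had 13 of 17 above 0 (median 0.26) and cholesterol synthesis 15 of 21 (median 0.34, and 0.05 without that library). Glycolysis had 14 of 16 above 0 with a median of 0.41, against 11 of 16 and 0.10 without that library and 8 of 16 and -0.01 without yolk sac. Hypoxia targets had 4 of 11 above 0 (median -0.26, and -0.21 without that library).

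Ribosomal protein genes were all above 0, 26 of 26, with a median of 0.48 and a range of 0.02 to 0.82. Scaling lowered the median to 0.30 after centring and 0.16 after quantile normalization, beside all-gene medians of -0.069 and -0.023. Without yolk sac E10.5 replicate 3, 24 of 26 were above 0 with a median of 0.30. Rps2 and Rplp0 had the largest differences, 0.82 ± 0.39 and 0.80 ± 0.38 (adjusted p = 0.927 and 0.930). Oxidative phosphorylation genes had 23 of 27 above 0 and a median of 0.18, which was -0.00 after centring and -0.04 without that library.

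**Figure D3:**
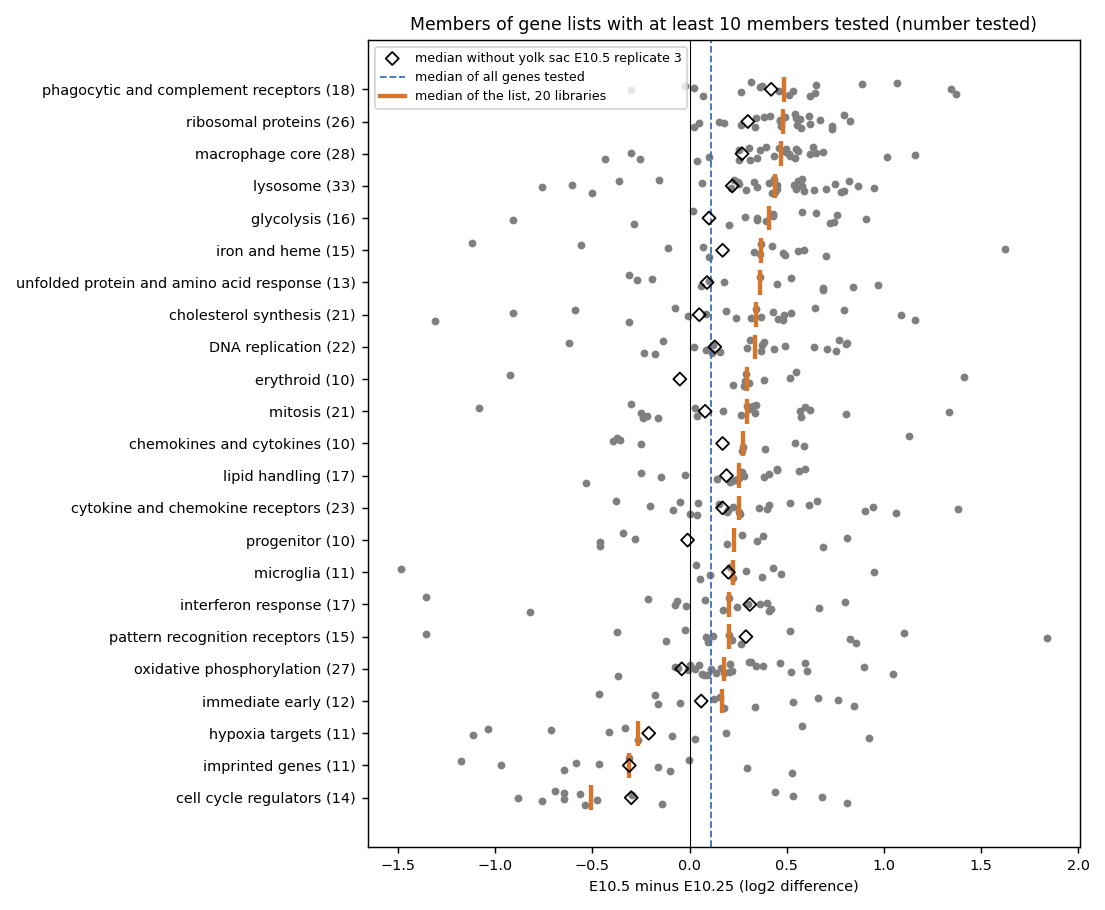
Differences between E10.5 and E10.25 (log2) for the tested members (grey points) of the 23 lists with at least 10 members tested, with the number tested in brackets. Orange bars are list medians, open diamonds are medians without yolk sac E10.5 replicate 3, and the dashed line is the median of all genes, 0.110. List medians lie between -0.51 and 0.49.

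Mki67, a marker of cycling cells, was detected in all 20 libraries. It lay at 13.07 to 14.83 (median 14.17) at E10.25 and at 13.07 to 15.83 (median 13.64) at E10.5, a difference of -0.16 ± 0.36 with an interval of -0.90 to 0.57. That difference was -0.43 without yolk sac E10.5 replicate 3 and -0.53 after quantile normalization. Of 21 tested mitosis genes 15 were above 0 (median 0.30, and 0.08 without that library), and their signs were split: Kif11, a spindle motor, differed by -1.08 ± 0.39 and Aurka by 1.33 ± 0.39. DNA replication genes had 18 of 22 above 0 (median 0.34, and 0.13 without that library). Cell cycle regulators had the lowest median of the 23 lists, -0.51 with 4 of 14 above 0, and -0.30 without that library. The inhibitor Cdkn2c differed by -0.88 ± 0.58 and the cyclin Ccnd3 by 0.81 ± 0.46. Imprinted genes had 2 of 11 above 0 (median -0.31, and -0.06 with the set of libraries as a covariate), with Impact at -1.17 ± 0.56. Of the sex-linked list 4 genes were tested and 0 were above 0 (median -0.52, and -0.19 without yolk sac). The Y-linked demethylase gene Kdm5d was detected in all 20 libraries, at 8.57 to 11.25. Ddx3y, also Y-linked, was at the floor in liver E10.25 replicate 2.

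Markers of the later tissue macrophages showed no called difference. Of 15 microglia genes 11 were tested and 10 were above 0 (median 0.22, and 0.05 with the set of libraries as a covariate). P2ry12, a nucleotide receptor of microglia, had medians of 9.69 and 10.16 and a difference of 0.22 ± 0.45, and Gpr34, a lipid receptor, differed by -1.49 ± 0.64. Of 14 Kupffer cell genes 6 were tested, with a median of 0.06. The Kupffer cell markers Clec4f, Marco and Spic were at the floor in most of the 20 libraries.

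Markers of other cells were measured in each library as the summed level of a list, because a sort can hold such cells or their RNA. The erythroid sum lay at 11.24 to 17.38 (median 14.90) at E10.25 and at 11.55 to 19.39 (median 14.06) at E10.5. Of its 16 genes 10 were tested, and 9 had a difference above 0, against 4 of 10 without yolk sac E10.5 replicate 3. That library had the highest erythroid sum (19.39), megakaryocyte sum (14.77), endothelial sum (13.16) and monocyte sum (14.05) of the 20. In the other 19 libraries the megakaryocyte sum was at most 11.53 and the endothelial sum at most 12.47. Its high sums were not limited to other cells, since it was the highest of the 20 in 32 of all 43 lists. Among these were macrophage core genes (19.40, against at most 18.46 in the others), lysosome (19.40 against 18.23), glycolysis (19.96 against 17.98), ribosomal proteins (20.24 against 18.69) and mitosis (18.08 against 16.77). Yolk sac E10.5 replicate 1 had the highest sums for mast cells (11.55), mesenchyme (13.21) and neutrophil granules (14.64). Liver E10.25 replicate 2 had the highest sums for hepatoblasts (14.29) and visceral endoderm (13.84). The part of these cells in the differences between ages was not tested. Leaving out yolk sac E10.5 replicates 1 and 3 together still gave 0 called genes.

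Neutrophil granule sums spanned 5.48 to 13.87 (median 9.90) at E10.25 and 9.05 to 14.64 (median 11.38) at E10.5. Of its 8 genes only Mpo and Prtn3 were tested, with differences of 1.12 ± 0.74 and 1.09 ± 0.64, and Ngp was at the floor in all 20 libraries. Monocyte sums were 11.42 to 13.73 (median 12.79) and 11.72 to 14.05 (median 12.91), with 3 of 4 tested genes above 0. The monocyte receptor Ccr2 differed by 0.90 ± 0.71. Endothelial sums were 9.72 to 12.47 (median 11.51) and 10.01 to 13.16 (median 10.67), with 2 of 5 tested genes above 0 and Emcn at the floor throughout. Neural sums were 8.06 to 12.99 (median 9.36) and 8.68 to 11.59 (median 10.22). Lymphoid sums were 8.85 to 11.19 (median 9.89) and 9.93 to 12.03 (median 10.70), with Cd79b as the only tested member (0.81 ± 0.39). No member of the mast cell, mesenchyme, hepatoblast, visceral endoderm, epithelial or myoblast lists passed the filter.

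**Figure D4:**
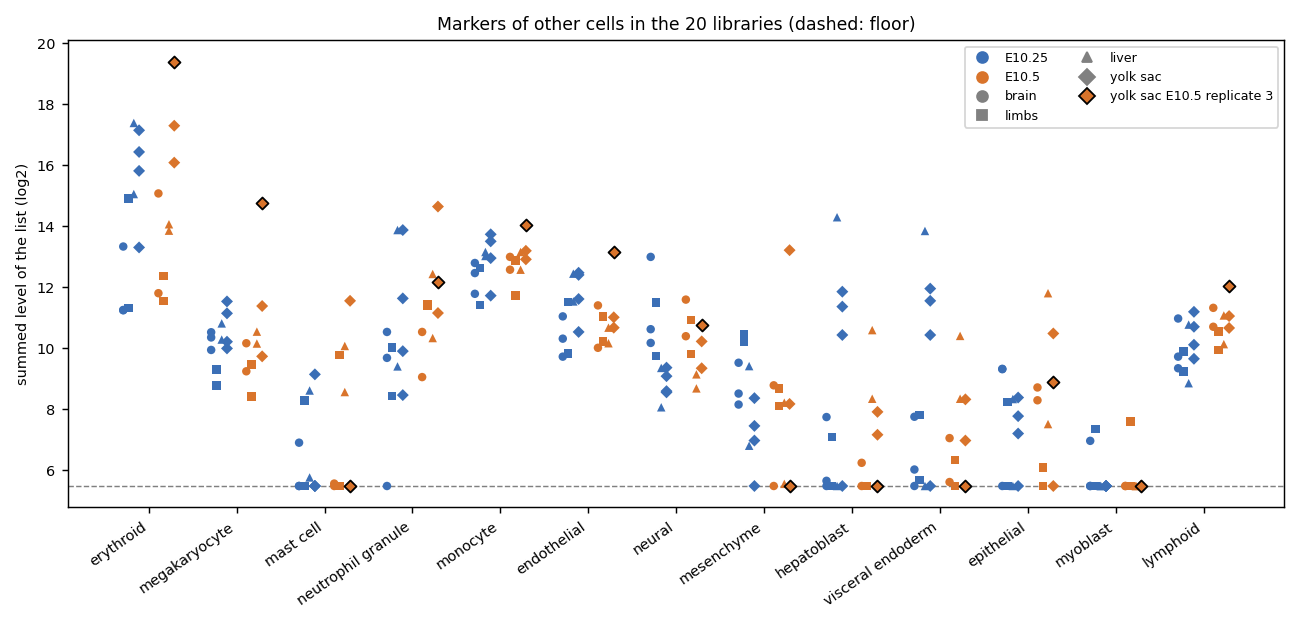
Summed level (log2) of marker genes of 13 other cell types in each of the 20 libraries, E10.25 in blue and E10.5 in orange, with tissues by symbol and the floor of 5.48 dashed. Yolk sac E10.5 replicate 3, outlined in black, has the highest erythroid (19.39), megakaryocyte (14.77) and endothelial (13.16) sums.

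Within single tissues no gene was called either (limma, 1 mean per tissue and age). At an unadjusted p under 0.05, brain had 421 genes (4.35%), limbs 89 (0.92%), liver 454 (4.69%) and yolk sac 1147 (11.9%). These counts moved when single libraries were left out. The yolk sac count was 415 without E10.5 replicate 3 and 1713 without E10.5 replicate 1. The brain count was 256 without E10.25 replicate 3 and 266 without E10.5 replicate 1. For limbs it was 25 without limbs E10.25 replicate 2, and for liver 199 without liver E10.25 replicate 2 and 289 without liver E10.5 replicate 1. Leaving out yolk sac E10.5 replicate 3 also gave 143 in limbs and 655 in liver. With 2 to 4 libraries per group these contrasts are less precise than the pooled one. For Csf1r the differences were 0.40 ± 0.67 in brain, 0.75 ± 0.74 in limbs and 0.20 ± 0.56 in yolk sac, against -1.39 ± 0.74 for the liver. Whether the difference between ages itself differed between tissues was tested with an F test, and 0 genes passed (smallest adjusted p = 0.862), with 496 (5.13%) at an unadjusted p under 0.05. Within the larger set of libraries both ages were present for brain, limbs and yolk sac, and within the smaller set for brain and yolk sac alone. The comparison of ages with tissue as a covariate called 0 genes in each set, with 1012 at an unadjusted p under 0.05 in the larger and 996 in the smaller. Neither set holds liver libraries of both ages, so the liver difference cannot be told apart from the set.

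Levels before and after these ages are given as a description, with no test. Precursors labelled pMac came from E9.5 (n = 9) and E10.25 (n = 4), and later Mac libraries from E12.5 (n = 6), without yolk sac. Stab1, a scavenger receptor of embryonic macrophages, had a median of 9.67 in pMac of E9.5 and 10.16 in pMac of E10.25, then 15.14 and 15.43 in the early Mac groups, and 12.53 in Mac of E12.5. All 20 early Mac libraries lay above all 13 pMac libraries for this gene. Mrc1 had medians of 11.16 and 11.06 in pMac, 13.50 and 13.45 in early Mac and 12.47 in Mac of E12.5. In early Mac 2 E10.5 libraries, at 11.20 and 12.24, lay within the pMac range. Slc40a1 had a median at the floor in pMac of E9.5 and of 8.62 in pMac of E10.25, against 11.84 and 12.25 in the 2 early Mac ages. Hmox1 had medians of 9.56 and 10.39 in pMac and of 13.58 and 13.46 in early Mac.

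The E10.25 and E10.5 medians thus lay closer to each other than to the pMac medians for Stab1, Mrc1, Slc40a1 and Hmox1. This did not hold for all genes given here. Cd34 had medians of 11.82 and 11.61 in pMac, 9.15 and 10.38 in early Mac, and 7.23 in Mac of E12.5. Tgfbi had medians of 8.15, 8.58, 9.96, 11.56 and 11.59 over the same 5 groups. Its ranges were wide: at E12.5 its libraries ran from 6.86 to 12.06. Tgfbi was named for its small p between Mac of E10.25 and Mac of E10.5. Its rise from 9.96 to 11.56 between these groups follows from that choice and is no separate evidence. Lyz2, chosen after its values were seen, had medians of 11.55, 12.19, 12.41, 13.46 and 12.56. For Tgfbi and Lyz2 the Mac median of E10.25 lay closer to the pMac median of E10.25 than to the Mac median of E10.5. For Cd34 the Mac median of E10.5 lay between those of Mac and pMac of E10.25. The pMac and E12.5 groups hold other mixes of tissues, so these levels differ in tissue as well as in stage.

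**Figure D5:**
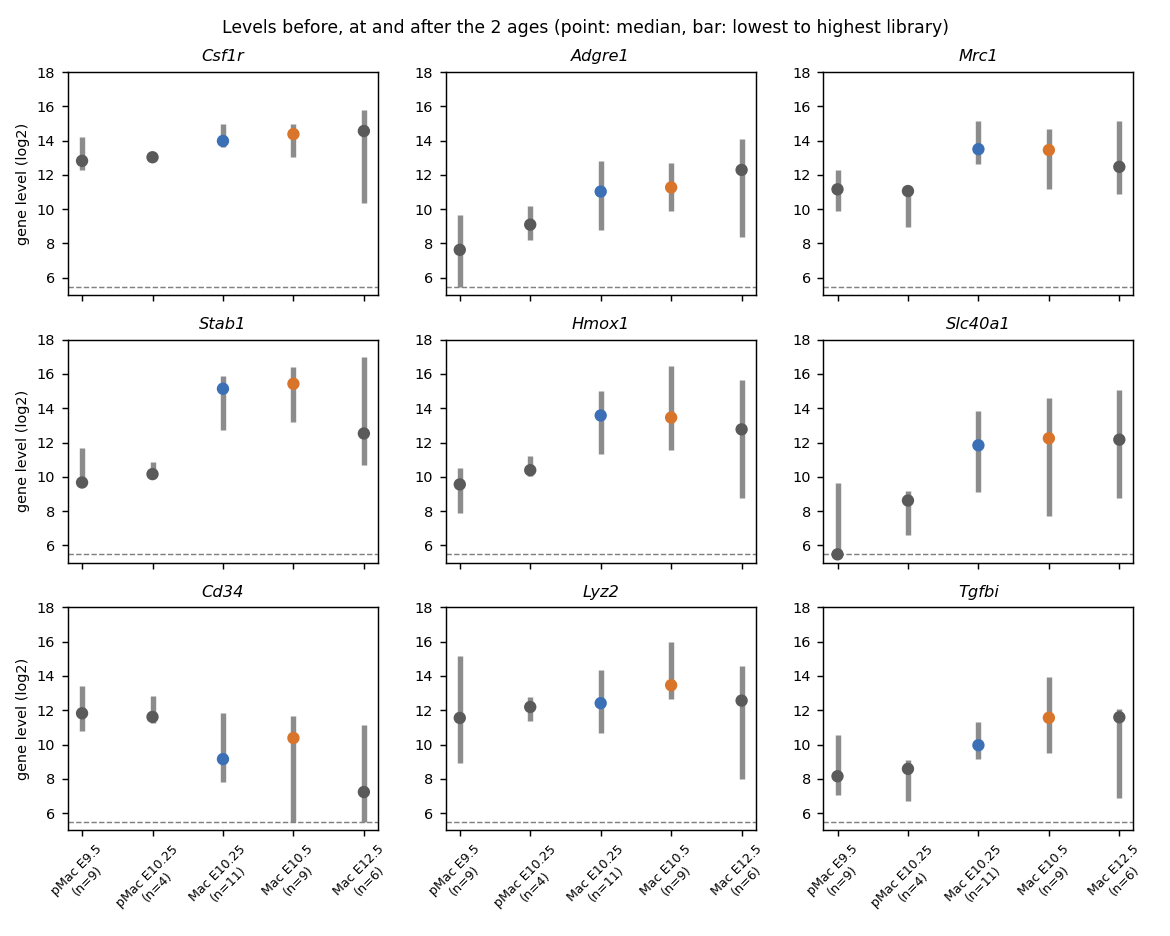
Gene levels (log2) of 9 genes over 5 groups, from pMac of E9.5 and E10.25 through early Mac (E10.25 blue, E10.5 orange) to Mac of E12.5. Points are medians, bars run from the lowest to the highest library, and the dashed line is the floor of 5.48. For Stab1 all early Mac libraries (12.73 to 16.42) lie above all pMac libraries (9.44 to 11.67).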

How the data were processed

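Each deposited value is a log2 level of an Ensembl transcript in a library, normalized by the authors in a way not given in the sources used here. Base 2 was taken from the range of the values (0.836 to 19.006). The submitters' processing notes list Bowtie 1.1.1, DESeq2 and mm10 with no role. The floor of 5.48 lies 0.5 above the highest of the 93 libraries' bands of lowest values. Of 37521 transcripts, 36703 were matched to 14181 gene symbols of the mm10 annotation. A gene level is the log2 of the floor plus the summed linear excess of its transcripts over it. Genes at 6.48 or more in at least 9 of 20 libraries entered limma 3.58.1 (R 4.3.3, trend option on). The 2 sets were found by clustering the offsets of 8699 transcripts, their number being preset. Named genes are a panel of 21 and, since none was called, the 10 of smallest p in each direction, without predicted genes. A few genes that these rules name are not reported here. The script was tested on simulated data, where 1 unchanged gene was called. Members, lists and rules were chosen with earlier results of these data known. DESeq2 and edgeR were not run, since there are no counts.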

Additional observations from a re-analysis of the deposited data

Results flagged for a closer look

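Among the 9 libraries of E10.5 and among the 4 yolk sac libraries of E10.25, 107 groups of values were searched for a library far from the rest (Dixon's test at 95%), and 14 stood out. Chance flags about 1 in 20 groups of independent, normally spread values. That rate is no baseline here: levels stop at the floor, the E10.5 groups mix tissues, and groups share libraries. Where all other libraries of a group were at the floor, a single detected value was flagged whatever its size.

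Yolk sac E10.5 replicate 3 accounted for 7 of the 14, against the E10.5 median in brackets. It was the highest for Aurka at 14.51 (11.56), the proliferation marker Mki67 at 15.83 (13.64), the ribosome assembly factor Nob1 at 13.93 (10.17), Tnfrsf13b at 13.18 (10.55), the megakaryocyte sum at 14.77 (10.15) and the endothelial sum at 13.16 (10.67). It was the lowest for the progenitor gene Cd34, at the floor of 5.48 (10.38). Among the other E10.5 libraries, limbs replicate 2 had Setdb2 at 9.69 (5.48), limbs replicate 1 had the myoblast gene Pax3, the sole gene of its list in the data, at 7.60 (5.48), and yolk sac replicate 1 had the mesenchyme sum at 13.21 (8.17).

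In yolk sac of E10.25, replicate 4 had Snupn at 7.61, with a group median of 5.49, and Isoc2b at 6.41 with the median at 5.48. Replicate 2 had the mast cell sum at 9.14 with the median at 5.48, and was the lowest for Adck2 at 5.48 with the median at 6.67.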

How the results depend on the processing

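The comparison over all tissues gave 0 called genes under all 38 alternatives run, with 343 to 1012 genes at an unadjusted p under 0.05 and medians of all differences from -0.069 to 0.174. Without any filter on low levels, 2 genes were called in brain, 41 in limbs (40 lower at E10.5), 14 in liver, 3 in yolk sac and 11 for the difference between tissues. In the larger set only, brain gave 1, and in the smaller set only, yolk sac gave 2. Leaving out each library in turn, yolk sac gave 0 to 4: 1 without E10.25 replicate 2 and 4 without E10.5 replicate 2. The cause of these counts was not tested.

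Of 211 counts under an alternative 202 were 0. Of 1461 values of the 39 named genes tested none became called and 80, in 13 genes, had the other sign, most often Csf1r and Timd4, whose differences were near 0. Detected transcripts differed by -657, -386 and -113 at floors of 5.48, 0.5 higher and 1 higher.

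Same-numbered libraries of the 2 ages showed no sign of pairing within a tissue: their correlations were -0.16 to 0.036. In limbs and liver, with 2 libraries per group, both numbers give the same correlation by construction. Pairing by number between tissues of the same age was not examined. With the number as a replicate block 0 genes were called (648 at an unadjusted p under 0.05), and with tissue and number together 0 (429). Genes under a level of 8 had an interval within -1 and 1 in 2.72% and within -2 and 2 in 88.1%. For genes at 8 to 10 these shares were 5.61% and 82.6%. The median SEs were 0.568 under 8 and 0.549 at 8 to 10.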
